A study of Mus musculus with 18 samples.

Results

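The cytosolic ribosomal protein genes were examined in the hypothalamus of Schlager hypertensive BPH/2J mice and their normotensive BPN/3J controls. A gene was taken as a member when a probeset carried its symbol alone and that symbol was *Rpl* or *Rps* followed by a number, or was *Rplp0*, *Rplp1*, *Rplp2* or *Rpsa*. Where a gene had several such probesets, the one with the highest mean over all arrays was used. In this way 193 probesets gave 61 members of 19937 genes, with 38 of the large subunit and 23 of the small subunit. A further 209 probesets named a ribosomal protein gene together with other genes, and 18 ribosomal protein symbols occurred only there (among them *Rpl22l1*, *Rpl35*, *Rps23* and *Rpl36al*), so those genes are not members. Ribosomal protein genes have many processed copies in the genome, so a probeset can read several near-identical transcripts, and the value of a single member is uncertain to that extent.

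Total RNA of single male mice was hybridized to whole-transcript Mouse Gene 1.0 ST arrays. The groups were BPH/2J at ‘peak’ blood pressure (active period, 26 weeks old, n = 6), BPN/3J at ‘peak’ (active period, 26 weeks old, n = 6), BPH/2J at ‘trough’ (inactive period, labelled 18 weeks old, n = 3) and BPN/3J at ‘trough’ (inactive period, labelled 18 weeks old, n = 3). The text on the series gives 19 weeks for the ‘trough’ mice. All mice were untreated, none was pooled, and each array is named here by the mouse number in its title. The titles of the BPN/3J ‘trough’ arrays name BPN mice with normal blood pressure while their strain entry reads BPH/2J, and the titles were followed. Age and time of day changed together, so they cannot be told apart in any ‘peak’ minus ‘trough’ difference.

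The cytosolic ribosome makes all proteins encoded in the nucleus, from a small subunit that reads the mRNA and a large subunit that forms the peptide bond. Its protein genes are among the most strongly transcribed genes of every cell, neurons included, and their mRNAs are as a rule made together. Most of these mRNAs start with a C followed by a run of C and T (a 5′ terminal oligopyrimidine tract, or TOP), through which mTOR signalling and the RNA-binding protein Larp1 adjust their translation.

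The annotated start sites of members named in the results are shown to let the reader see this tract. RefSeq promoter windows (build GRCm38.p6) were matched by symbol for 49 of the 61 members. Each line gives 20 bases before and 10 bases from the annotated start onwards, and capitals mark an unbroken run of 4 or more C and T that begins at that start.
Rps6 (chr4:86857358-86857387, minus strand): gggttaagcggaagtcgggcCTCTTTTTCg
Rps18 (chr17:33955656-33955685, minus strand): acttatacgtcacttccgctCTCTCTTCCa
Rpl28 (chr7:4792945-4792974, plus strand): tcgtcccgcctctcgtgtctCTCTTTCCgt
Rpl38 (chr11:114668560-114668589, plus strand): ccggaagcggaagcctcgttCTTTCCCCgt
Rps10 (chr17:27635235-27635264, minus strand): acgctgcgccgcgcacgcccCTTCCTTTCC
Rpl10 (chrX:74270796-74270825, plus strand): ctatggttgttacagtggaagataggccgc
Rps28 (chr17:33824553-33824582, minus strand): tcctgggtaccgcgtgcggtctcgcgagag
Rps3a1 (chr3:86142659-86142688, minus strand): gattcttaaagccggaagggcgaaagagca
The last 3 have no such run at the annotated start, which can lie some bases away from the start used in the cell. A C at the annotated start followed by 3 or more C or T stood in 10 of 58 member windows (17.2%), against 3.76% of all 32851 promoter windows. Allowing such a tract, with 4 or more C or T after the C, to begin up to 5 bases before or after the annotated start gave 20 of 58 windows (34.5%), against 18.3% of all windows. The letters CGGAAG, the core of sites for factors of the ETS family, stood on either strand in 36 of the 58 windows (62.1%), against 16.9% of all windows. The palindrome CTCGCGAG, which begins at the annotated start of *Rps28*, stood in 8 of the 58 windows (13.8%), against 0.919% of all windows, and TATAAA on either strand in 10.3%, against 13.6%. A window can hold several of these motifs. The matches describe letters in windows of 300 bases and are not evidence of binding.

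Member signals were high as a group. Their mean log2 signals over the 18 arrays ran between 3.79 and 13.52 with a median of 10.87, against a median of 7.02 over all genes, and 40 of the 61 members lay at 10 or more. Probesets differ in how well they hybridize, so these signals do not rank transcripts. The 5 members with the highest signals were *Rpl9*, *Rps18*, *Rps6* (the target of S6 kinase), *Rpl10* and *Rplp1* (a protein of the stalk that recruits elongation factors). The 5 with the lowest were *Rpl7a*, *Rpl3l*, *Rpl10l*, *Rpl39l* and *Rpl12*, all under 6.20. *Rpl3l* is known as a muscle paralogue of *Rpl3*, and *Rpl10l* and *Rpl39l* as testis paralogues of *Rpl10* and *Rpl39*. *Rpl7a* and *Rpl12* are expressed in all cells, and their brighter probesets on this array carry other symbols as well.

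Of markers checked for the labelled tissue, 15 of 15 neuron markers and 12 of 17 hypothalamus markers had a mean signal of 7 or more, and *Pmch* was the brightest hypothalamus marker. The 8 pituitary markers averaged 5.75 to 6.47 in the BPH/2J and BPN/3J ‘peak’ arrays and 5.85 to 6.23 in the BPH/2J ‘trough’ arrays, but 6.24 to 7.97 in the BPN/3J ‘trough’ arrays. Mouse 3 gave the 7.97, and the other BPN/3J ‘trough’ mice lay within the range of the ‘peak’ arrays. There were 4 ‘peak’ arrays that stood apart in the members: mice 8 and 9 of BPH/2J and mice 10 and 11 of BPN/3J, the highest mouse numbers of their groups. The labels give no batch, and the ‘peak’ comparisons are given with and without these arrays. This division was chosen with earlier results of these data known and follows the members' own signals. Counts of members called on either side of it are therefore descriptions and not tests.

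Most members moved together across the arrays. The member score of an array is the mean over the 61 members of the log2 signal minus that member's mean over all 18 arrays. In BPH/2J ‘peak’ it was 0.18, 0.28, 0.16, 0.24, -0.13 and -0.11 for mice 4 to 9. In BPN/3J ‘peak’ it was 0.17, 0.22, 0.12 and 0.15 for mice 5 to 8, -0.06 for mouse 10 and -0.16 for mouse 11. In BPH/2J ‘trough’ it was -0.15, -0.14 and -0.16, and in BPN/3J ‘trough’ -0.29, -0.22 and -0.12. All 8 lower-numbered ‘peak’ mice (BPH/2J 4 to 7 and BPN/3J 5 to 8) had a positive score, and the 4 higher-numbered ‘peak’ mice lay with the 6 ‘trough’ mice below 0. Small-subunit members spread more widely, with scores between -0.45 and 0.38, than large-subunit members, with scores between -0.20 and 0.22.

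**Figure D1:**
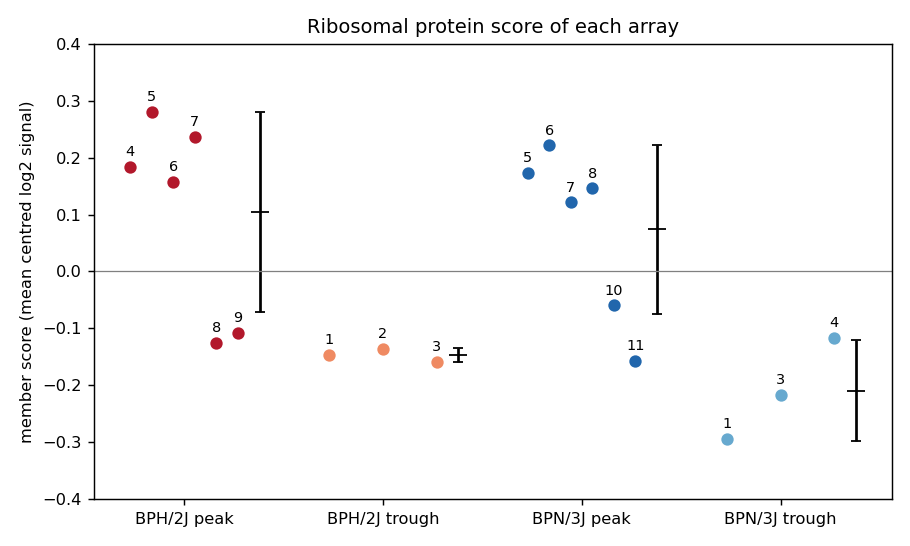
Member score of each of the 18 arrays (mean over 61 members of the log2 signal, centred per member), one point per mouse with its number, and the mean ± SD of each group beside the points. The scores of BPH/2J ‘peak’ mice 8 and 9 and BPN/3J ‘peak’ mice 10 and 11 lie below 0, and the scores of the other 8 ‘peak’ mice lie between 0.12 and 0.28.

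After the mean of each group was removed, the first principal component held 72% of the members' variance, against 35.2% over all genes and 49.5% over 1391 other genes with a mean signal of 10 or more. The share was close to that of the members in 58 ribosome biogenesis factors (69.8%), 19 elongation factors and other TOP mRNAs (69.1%) and 39 proteasome subunits (67.2%). It was higher in 9 ependyma and choroid plexus markers (93.2%) and 8 pituitary markers (86.8%). With each gene scaled to the same variance, the members' share was 53.1%, against 55.8% in the biogenesis factors, 56.1% in the elongation and TOP list and 29.9% over all genes. The mean pairwise correlation of the members over the 18 arrays, again without group means, was 0.30, against 0.01 over all genes and 0.07 over those other bright genes, but 0.37 over the biogenesis factors, 0.31 over 29 initiation factors and 0.28 over the proteasome subunits. It was 0.57 over 10 oligodendrocyte markers. A single member correlated with the mean of the others at a median of 0.83, and 33 of the 61 members passed 0.7 while 11 were negative. With the score itself, again without group means, 54.1% of the members and 14.2% of all genes correlated above 0.7, as did 53.4% of the biogenesis factors, 51.7% of the initiation factors, 47.4% of the elongation and TOP list and 46.2% of the proteasome subunits. The ribosomal protein genes thus shared the pattern with these lists. All these correlations share the same 18 arrays, and no test was made of them.

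*Rps28* (r = 0.99), *Rps15* and *Rpl36a* (both 0.98), *Rpl23* (0.97) and *Rps20* (0.97) followed the other members most closely. *Rps28*, a small-subunit protein mutated in some cases of human Diamond-Blackfan anaemia, had a lowest, median and highest log2 signal of 9.30, 10.06 and 10.34 in BPH/2J ‘peak’ and 9.23, 10.08 and 10.30 in BPN/3J ‘peak’. Its low values there were 9.30 and 9.32 in BPH/2J mice 8 and 9 and 9.38 and 9.23 in BPN/3J mice 10 and 11. Its ‘trough’ values were 9.57, 9.53 and 9.54 in BPH/2J and 9.16, 9.40 and 9.61 in BPN/3J. The 8 lower-numbered ‘peak’ mice thus lay above every other array for *Rps28*, and the 4 higher-numbered ones lay among the ‘trough’ arrays.

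*Rps15*, which sits in the head of the small subunit, had the widest swing of these. It was 10.99, 11.54, 10.90 and 11.46 in BPH/2J ‘peak’ mice 4 to 7 and 9.76 and 9.51 in mice 8 and 9, against 10.08 to 10.19 in BPH/2J ‘trough’. In BPN/3J it was 11.12, 11.40, 10.78 and 10.87 in ‘peak’ mice 5 to 8 and 9.68 and 9.47 in mice 10 and 11, against 9.88 to 10.26 in ‘trough’. With values of the same group that far apart, the *Rps15* difference of 0.54 ± 0.46 (SE) between BPH/2J ‘peak’ and ‘trough’ did not pass the test (adjusted p = 0.521).

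The 5 members least like the others were *Rpl10* (r = -0.61), *Rpl21* (-0.55), *Rpl7a* (-0.45), *Rps18* (-0.27) and *Rpl24* (-0.27). *Rpl10*, a protein that joins the large subunit late and is needed before it can pair with the small one, ran against the rest inside the ‘peak’ groups. Its 4 highest values were those of BPH/2J ‘peak’ mice 8 and 9 (12.74 and 12.83) and BPN/3J ‘peak’ mice 10 and 11 (12.81 in both). *Rpl21* likewise was highest in BPH/2J ‘peak’ mouse 9 (10.10), with 9.51 to 9.76 in the other BPH/2J ‘peak’ mice and 9.17 to 9.78 in BPN/3J ‘peak’. *Rps18* moved little in BPH/2J ‘peak’, with 12.43 to 12.58, but ran between 12.08 in mouse 7 and 12.66 in mouse 10 of BPN/3J ‘peak’.

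**Figure D2:**
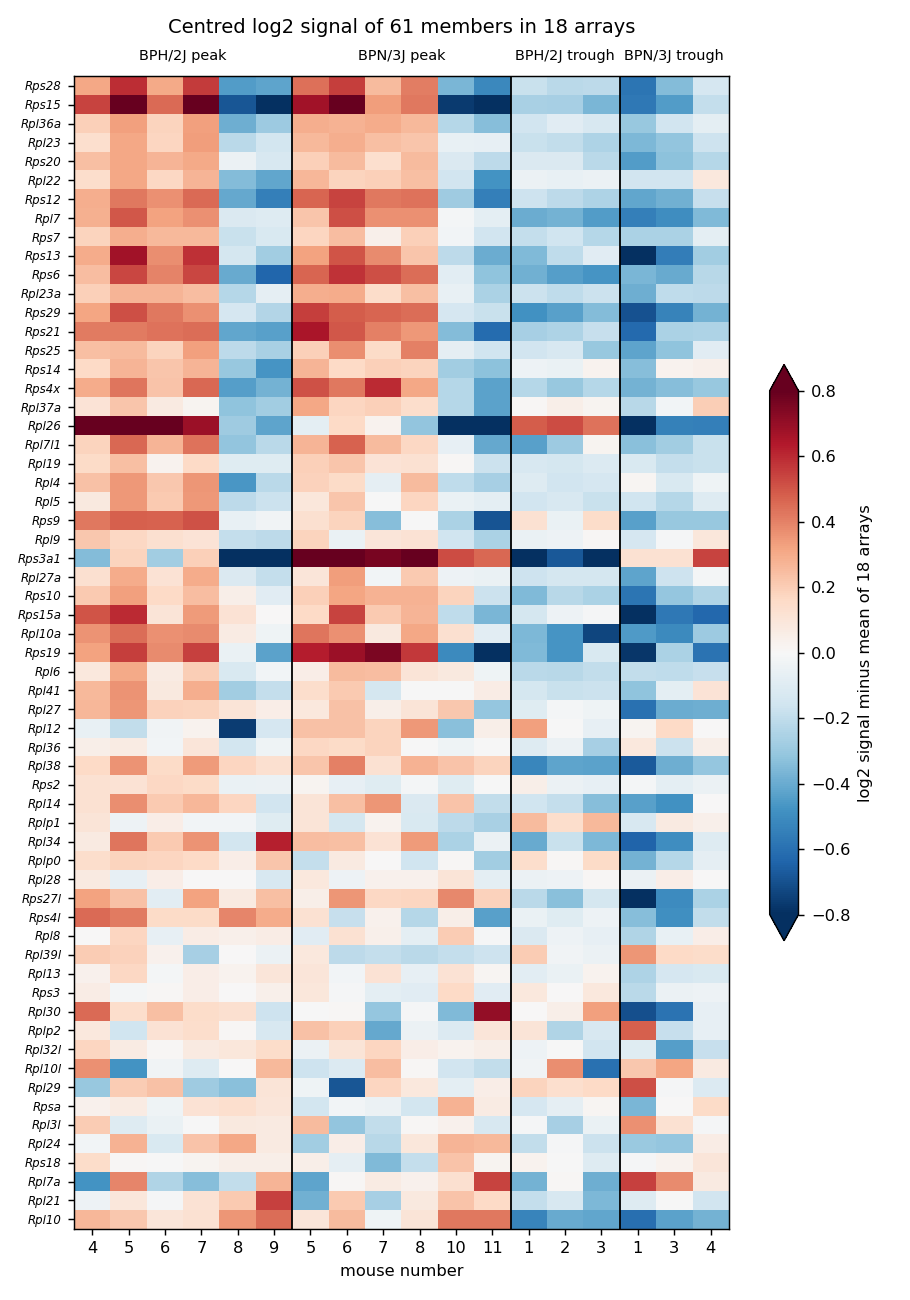
Log2 signal of each of the 61 members (rows) in each of the 18 arrays (columns, mouse numbers by group), minus the member's mean over all arrays. Rows run down in order of each member's within-group correlation with the mean of the others, 0.99 for *Rps28* at the top and -0.61 for *Rpl10* at the bottom.

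The score also moved with properties of the whole array. It correlated with the median of all 34760 probesets at r = -0.84 (Spearman rho = -0.86) and with their interquartile range at r = 0.80 (rho = 0.79), over 18 arrays. Removing the group means left -0.79 and 0.79, and leaving out the 2 arrays farthest from the middle of each measure -0.78 and 0.79. Since the scores fell into separate ranges, r was also taken within them, and was -0.80 and 0.83 in the 8 lower-numbered ‘peak’ mice and -0.80 and 0.77 in the other 10 mice, where rho was -0.56 and 0.37. The array medians ran between 6.17 and 6.42 and the interquartile ranges between 3.11 and 3.63. A score made the same way from the 1391 other bright genes correlated with the member score at r = 0.88, and scores of 74 mitochondrial ribosomal protein genes, 78 oxidative phosphorylation subunits and 39 proteasome subunits at 0.89, 0.86 and 0.92. For scores of neuron, astrocyte and oligodendrocyte markers r was -0.07, -0.06 and 0.03. With group means removed, these were 0.30, 0.35 and 0.25, and r was 0.64 for hypothalamus, 0.67 for endothelial, 0.59 for ependymal and choroid plexus and 0.54 for microglia markers. The part of these measures in the members' differences was not tested. In bulk tissue, fewer cells of a type and less RNA per cell cannot be told apart.

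**Figure D3:**
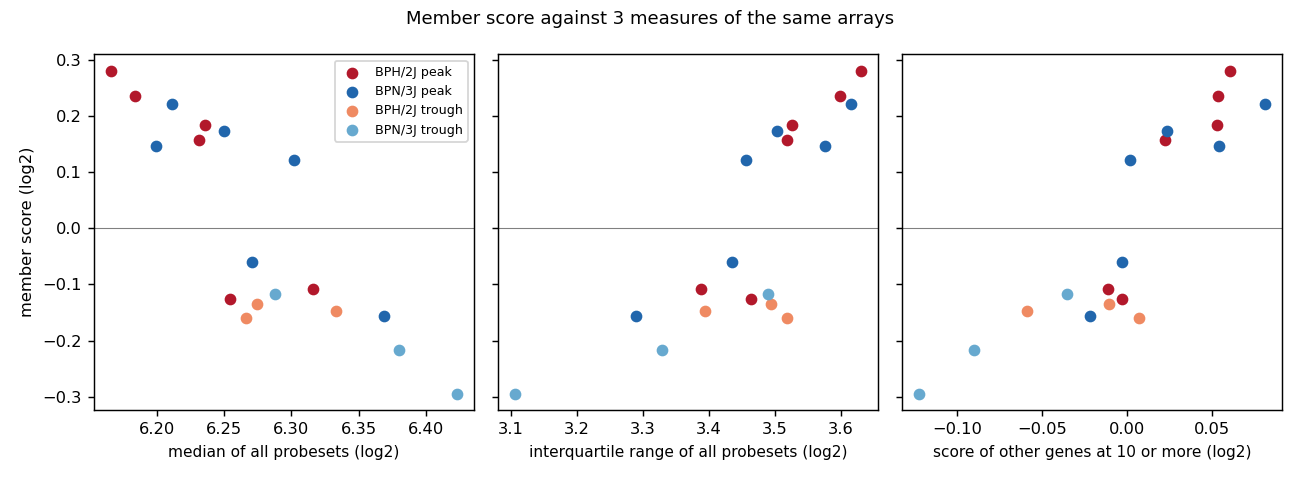
Member score of each array (log2) against the median of all probesets, their interquartile range and the score of 1391 other genes with a mean signal of 10 or more, coloured by group. The score falls as the array median rises (r = -0.84) and rises with the spread (r = 0.80) and with the other bright genes (r = 0.88).

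Among single genes outside the list, *Akap7* (r = 0.99), *Rbl1*, *Gripap1*, *Syf2*, *Naca* (a subunit of the complex that binds nascent peptides at the ribosome), *Psmd4*, *Ppp1r11* and *Ube2l3* (all 0.97) had the within-group pattern most like the score, over 18 arrays. The most opposite were *Unc5cl* (-0.96), *Abcc10*, *Mir365-1* (both -0.95), *Nudt4*, *Mir540*, *Tns1*, *Mxd1* and *Zfyve28* (-0.93 to -0.92), with 2 predicted genes left out.

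In BPH/2J mice, most members had a higher mean at ‘peak’ than at ‘trough’, and 7 rose past the test. The median member difference was 0.25 on the log2 scale, with 54 of 61 positive, against a median of -0.02 over all probesets. By limma's moderated test with Benjamini-Hochberg adjustment over all probesets, *Rpl38*, *Rpl10*, *Rpl10a*, *Rpl7*, *Rps10*, *Rpl34* and *Rps29* were higher and no member was lower. Over all probesets 4.25% were called higher and 4.39% lower in the same comparison. The background among bright genes was higher. Of 1391 other genes with a mean signal of 10 or more, 182 were called higher and 115 lower. Of the 40 members at that signal, 6 were called higher and none lower. Of the 7 called members, 5 belong to the large subunit.

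*Rpl10* was 12.48, 12.63 and 12.83 (lowest, median and highest) in BPH/2J ‘peak’, against 11.86, 11.98 and 11.97 in the 3 BPH/2J ‘trough’ mice. The groups did not overlap, and the difference was 0.70 ± 0.11 (SE; 1.62-fold; adjusted p = 0.00141). *Rpl38*, a large-subunit protein whose loss disturbs skeletal patterning in mice, was 11.26, 11.30 and 11.49 in BPH/2J ‘peak’, against 10.61, 10.71 and 10.70 in BPH/2J ‘trough’. Every ‘peak’ value again lay above every ‘trough’ value, by 0.67 ± 0.09 on average (adjusted p = 0.000658). *Rpl10a*, which binds near the exit site for tRNA, was 11.48, 11.87 and 11.96 in BPH/2J ‘peak’, against 11.15, 11.04 and 10.78 in BPH/2J ‘trough’ (difference 0.79 ± 0.13, adjusted p = 0.00188).

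*Rpl7* was 10.48, 10.90 and 11.09 in BPH/2J ‘peak’, against 10.20, 10.22 and 10.15 in the BPH/2J ‘trough’ mice (difference 0.61 ± 0.14, adjusted p = 0.0141). *Rps10*, which lies near the mRNA entry channel, was 10.58, 10.85 and 11 in BPH/2J ‘peak’, against 10.32, 10.45 and 10.42 in BPH/2J ‘trough’ (0.43 ± 0.11, adjusted p = 0.0281). The remaining calls were *Rpl34* (0.57 ± 0.16, adjusted p = 0.0375) and *Rps29* (0.63 ± 0.19, adjusted p = 0.0468), and the ‘peak’ and ‘trough’ values of all 7 called members were fully apart. Members with values fully above ‘trough’ numbered 16 (26.2%, against 8.19% of all probesets), and *Rplp1* alone lay fully below (1.64%, against 9.55% of all probesets). *Rplp1* was 12.27, 12.35 and 12.47 in BPH/2J ‘peak’, against 12.62, 12.51 and 12.63 in BPH/2J ‘trough’ (difference -0.22 ± 0.09, adjusted p = 0.12).

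With only the lower-numbered ‘peak’ mice, 35 members (57.4%) were called, all higher, against 19.2% of all probesets called in either direction, and the median difference was 0.38. With only the higher-numbered mice the median difference was 0.03 and 3 members (4.92%, against 2.26% of all probesets) were called, *Rpl10* and *Rpl38* higher and *Rpl26* lower. Since the division follows the members' own signals, the contrast between these counts was built into it and tests nothing. The count of 7 was 3 without ‘trough’ mouse 1 or 3 and 4 without ‘trough’ mouse 2 or ‘peak’ mouse 5 or 7. *Rpl10* and *Rpl38* passed under every one of 27 alternatives, while *Rps29* lost its call in 15 of them. Of 10 endothelial markers 8 had a lower mean in BPH/2J ‘peak’ (median -0.31, *Flt1* and *Kdr* called lower and *Itm2a* higher), and of 10 oligodendrocyte markers 9 did (median -0.20, none called, 4 with an unadjusted p under 0.05). Of 17 hypothalamus markers 10 had a higher mean in BPH/2J ‘peak’ and 7 a lower one (median 0.34, *Pmch* and *Hcrt* called higher). The part of these 3 marker lists in the members' differences was not tested.

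In BPN/3J mice the same comparison called 20 members, 19 higher and 1 lower at ‘peak’. The median member difference was 0.27, with 52 of 61 positive, against -0.01 over all probesets. Over all probesets 12.9% were called higher and 12.4% lower. Of the 1391 other genes with a mean signal of 10 or more, 319 were called higher and 84 lower. Of the 40 members at that signal, 13 were called higher and none lower. The 8 members with the smallest p among those called higher were *Rpl38*, *Rpl10*, *Rps27l*, *Rpl27*, *Rps10*, *Rpl7*, *Rpl10a* and *Rps15a*. The other 11 were *Rps29*, *Rpl32l*, *Rpl6*, *Rpl23*, *Rps20*, *Rpl34*, *Rps13*, *Rpl13*, *Rpl14*, *Rpl23a* and *Rps25*.

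*Rpl38* was 11.25, 11.35 and 11.53 (lowest, median and highest) in BPN/3J ‘peak’, against 10.46, 10.74 and 10.82 in the 3 BPN/3J ‘trough’ mice (difference 0.70 ± 0.09, adjusted p = 0.000213). *Rpl10* was 12.35, 12.57 and 12.81 in BPN/3J ‘peak’, against 11.78, 11.96 and 12.01 in BPN/3J ‘trough’ (0.68 ± 0.11, adjusted p = 0.000836). No ‘peak’ value of either gene reached a ‘trough’ value. *Rps27l*, the paralogue of *Rps27* and a known target of p53, was 7.24, 7.37 and 7.58 in BPN/3J ‘peak’, against 6.22, 6.69 and 6.94 in BPN/3J ‘trough’ (0.79 ± 0.13, adjusted p = 0.00101). Its BPH/2J ‘peak’ values of 7.11 to 7.52 also lay above the BPH/2J ‘trough’ values of 6.98, 6.86 and 7.05, but that difference of 0.41 ± 0.13 was not called (adjusted p = 0.0607).

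*Rps15a* was 8.68, 9.23 and 9.59 in BPN/3J ‘peak’, against 8.16, 8.48 and 8.42 in BPN/3J ‘trough’ (0.80 ± 0.17, adjusted p = 0.00445). *Rpl27* was 9.86, 10.26 and 10.40 in BPN/3J ‘peak’, against 9.57, 9.77 and 9.78 in BPN/3J ‘trough’ (0.52 ± 0.11, adjusted p = 0.00332). The groups were apart for both genes, with BPN/3J ‘peak’ mouse 11 the lowest of its group each time. *Rps10* (0.55 ± 0.11, adjusted p = 0.00353), *Rpl7* (0.70 ± 0.14, adjusted p = 0.00376) and *Rpl10a* (0.62 ± 0.13, adjusted p = 0.00392) differed by amounts close to those in BPH/2J. The testis paralogue *Rpl39l* was the lower one, at 3.57, 3.60 and 3.88 in BPN/3J ‘peak’, against 4.14, 3.95 and 3.93 in BPN/3J ‘trough’ (-0.37 ± 0.11, adjusted p = 0.0199), at the weakest signal of any member.

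In this comparison 15 members lay fully above ‘trough’ (24.6%, against 11.6% of all probesets) and *Rpl39l* alone fully below (1.64%, against 9.26% of all probesets). There were 11 members that lay fully above in both strains, namely *Rpl10*, *Rps29*, *Rpl6*, *Rpl10a*, *Rpl38*, *Rps10*, *Rpl7*, *Rpl27*, *Rps15a*, *Rps27l* and *Rpl32l*. The share of all probesets that did so in both strains was not counted, so this number has no background here. With only the lower-numbered ‘peak’ mice 37 members (60.7%) were called, 36 of them higher, against 36.7% of all probesets called in either direction. With only the higher-numbered mice 4 members (6.56%, against 6.43% of all probesets) were called, *Rpl10*, *Rpl38*, *Rpl7* and *Rps27l*, all higher, with a median difference of 0.11. Here too the contrast between the counts was built into the division. The count of 20 was 10 without ‘trough’ mouse 1 and 9 without ‘trough’ mouse 3. Pituitary markers moved with this comparison as well, since 4 of the 8 (*Lhb*, *Pitx1*, *Prl* and *Gh*) were called lower in BPN/3J ‘peak’. A pituitary score made like the member score was 1.85 in BPN/3J ‘trough’ mouse 3, but 0.12 in mouse 1 and 0.23 in mouse 4. In BPN/3J ‘peak’ it was -0.36 to 0.35, so the high signal was that of 1 array. The part of these markers in the members' differences was not tested.

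**Figure D4:**
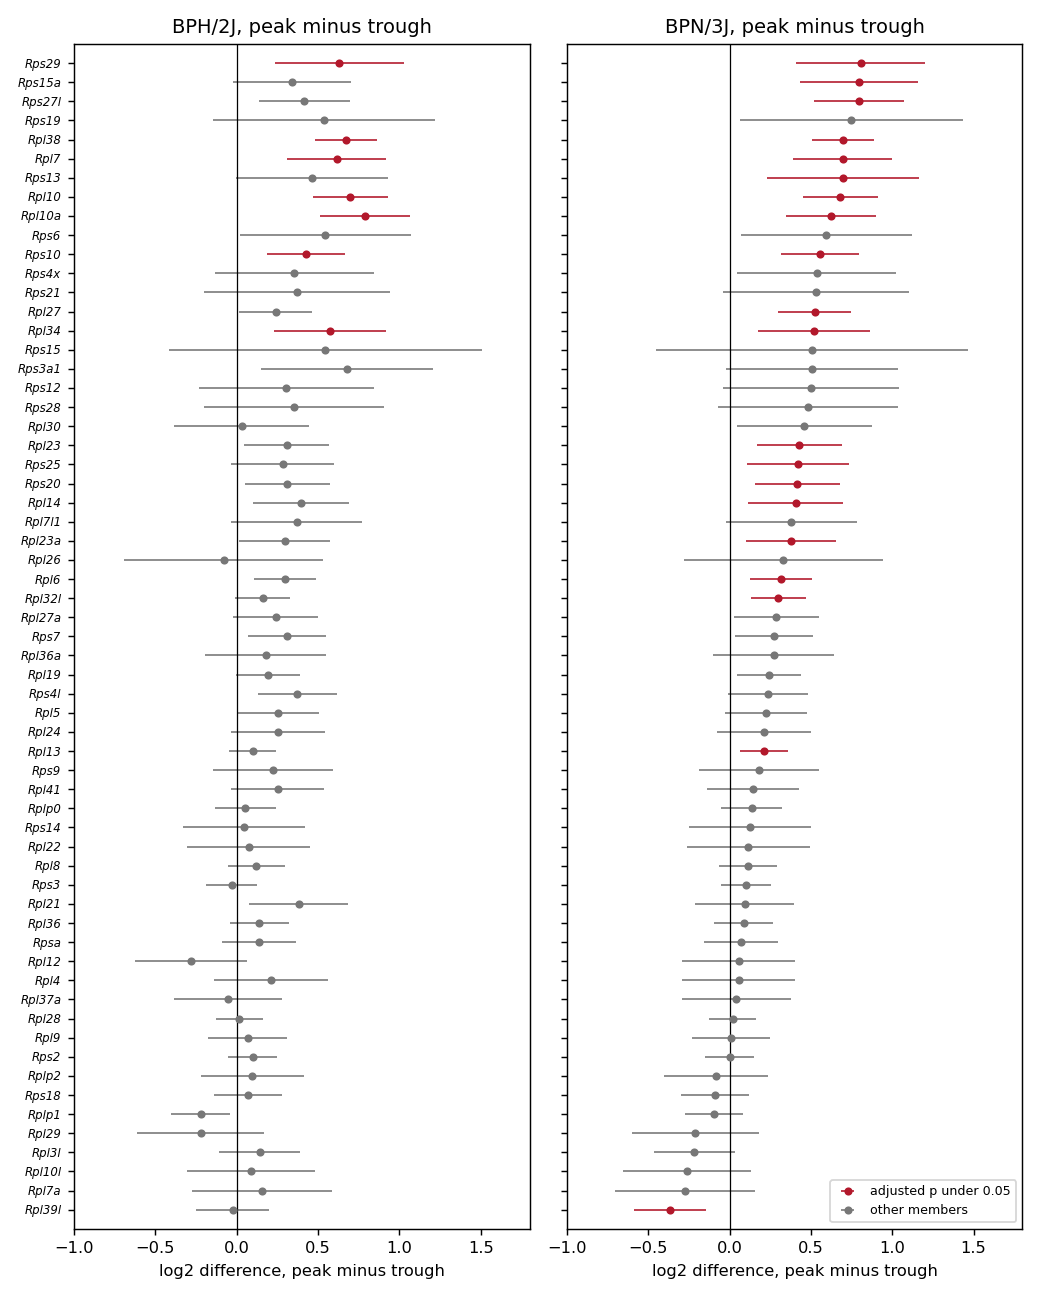
Log2 difference, ‘peak’ minus ‘trough’, with its 95% confidence interval for each of the 61 members in BPH/2J (left) and BPN/3J (right), ordered by the BPN/3J difference. Members with an adjusted p under 0.05 are red, 7 in BPH/2J and 20 in BPN/3J, and 54 of the 61 points in BPH/2J and 52 in BPN/3J lie to the right of 0.

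Small-subunit members had a median difference of 0.35 in BPH/2J and 0.50 in BPN/3J, and large-subunit members one of 0.17 and 0.21. Of the 23 small-subunit members 2 were called higher in BPH/2J and 7 in BPN/3J, and of the 38 large-subunit members 5 and 12. The 2 subunits were not tested against each other.

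**Figure D5:**
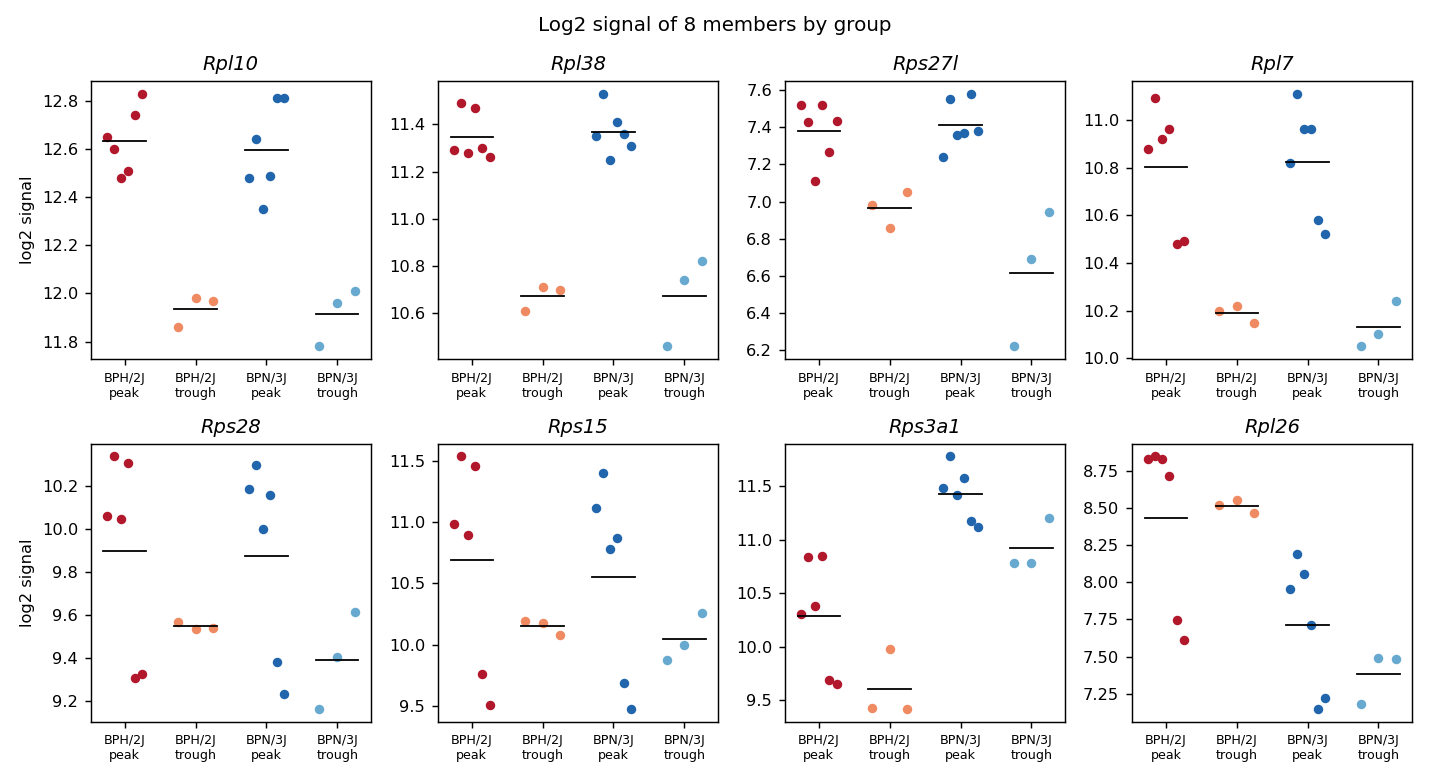
Log2 signal of 8 members by group, one point per mouse and a line at each group mean. *Rpl10*, *Rpl38*, *Rps27l* and *Rpl7* lie above ‘trough’ in every ‘peak’ mouse of the same strain. *Rps28* and *Rps15* fall in 4 of the 12 ‘peak’ mice to or under the ‘trough’ values. For *Rps3a1* the values of the strains do not overlap at either time. For *Rpl26* they overlap at ‘peak’ but not at ‘trough’, and it was not called between the strains at either time.

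The strains differed little in these genes at ‘peak’. The median BPH/2J minus BPN/3J difference was 0.02, with 39 of 61 positive, and 1 member was called higher and 1 lower, while 0.616% of all probesets were called higher and 0.713% lower. *Rps3a1*, a small-subunit protein, was lower in BPH/2J by the 1 probeset that carries its symbol alone. Whether that probeset reads the gene itself or a copy was not determined, and it had no second such probeset beside it. It was 9.65, 10.34 and 10.85 (lowest, median and highest) in BPH/2J ‘peak’, against 11.12, 11.45 and 11.78 in BPN/3J ‘peak’, a difference of -1.14 ± 0.20 (2.20-fold lower; adjusted p = 0.00528). At ‘trough’ it was 9.43, 9.98 and 9.42 in BPH/2J, against 10.78, 10.78 and 11.20 in BPN/3J (-1.31 ± 0.29, adjusted p = 0.0534). No BPH/2J value reached a BPN/3J value at either time, and *Rps3a1* was the only member with that pattern.

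*Rps4l*, annotated by RefSeq as a transcribed pseudogene and a copy of *Rps4x*, was the member called higher. It was 8.0, 8.19 and 8.30 in BPH/2J ‘peak’, against 7.41, 7.77 and 7.97 in BPN/3J ‘peak’ (0.42 ± 0.09, adjusted p = 0.0338), and 7.79, 7.75 and 7.81 in BPH/2J ‘trough’, against 7.5, 7.35 and 7.65 in BPN/3J ‘trough’ (0.28 ± 0.13, adjusted p = 0.484). It was the only member above BPN/3J in every mouse at both times, and its call was lost in 12 of 28 alternatives, among them leaving out BPH/2J ‘peak’ mouse 4, 5, 8 or 9, BPN/3J ‘peak’ mouse 6, 8 or 11, or BPH/2J ‘trough’ mouse 2. It was also lost with only the lower-numbered (0.36, adjusted p = 0.173) and only the higher-numbered ‘peak’ mice (0.54, adjusted p = 0.317). The parent gene *Rps4x* gave -0.09 ± 0.19 at ‘peak’ (95% interval -0.49 to 0.31). Counting members by groups that did not overlap gave these same genes, 1.64% above and 1.64% below, against 0.745% and 0.826% of all probesets. With only the lower-numbered ‘peak’ mice of both strains 3 members (4.92%, against 1.25% of all probesets) were called, *Rpl26* (0.83, adjusted p = 0.000681) and *Rps9* (0.48, adjusted p = 0.0382) higher and *Rps3a1* (-0.97, adjusted p = 0.0101) lower in BPH/2J. With only the higher-numbered mice 1 member was (1.64%, against 0.276% of all probesets), *Rps3a1* (-1.47, adjusted p = 0.0393).

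At ‘trough’ no member was called between the strains by limma, and 0.342% of all probesets were called higher and 0.187% lower. An unadjusted p under 0.05 was seen in 9 members (14.8%), against 10.4% of all probesets. The median difference was 0.06, with 45 of 61 positive. The 4 members furthest above were *Rpl26*, *Rps15a*, *Rpl30* and *Rps9*. *Rpl26*, a large-subunit protein also known for binding p53 mRNA, was 8.52, 8.55 and 8.46 in BPH/2J ‘trough’, against 7.18, 7.49 and 7.49 in BPN/3J ‘trough’ (difference 1.13 ± 0.34, adjusted p = 0.223). At ‘peak’ it was 7.61, 8.78 and 8.85 in BPH/2J, against 7.15, 7.83 and 8.19 in BPN/3J (0.72 ± 0.24, adjusted p = 0.224). Its values overlapped at ‘peak’ only through BPH/2J mice 8 and 9, at 7.75 and 7.61. *Rps15a* (0.63 ± 0.20), *Rpl30* (0.58 ± 0.23) and *Rps9* (0.42 ± 0.20) had adjusted p-values of 0.256, 0.402 and 0.49.

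The 4 furthest below at ‘trough’ were *Rps3a1*, *Rpl7a* (-0.59 ± 0.24), *Rpl10l* (-0.29 ± 0.22) and *Rpl3l* (-0.27 ± 0.14), of which none passed the test. Members lying fully above BPN/3J at ‘trough’ numbered 12 (19.7%, against 11.1% of all probesets), and those fully below 3 (4.92%, against 8.73% of all probesets). *Rplp0*, the core of the ribosomal stalk, was among the 12, at 10.69, 10.56 and 10.70 in BPH/2J ‘trough’, against 10.17, 10.32 and 10.48 in BPN/3J ‘trough’ (0.33 ± 0.10, adjusted p = 0.25).

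The question that the study put to its arrays was whether the strain difference changed with blood pressure, so the difference at ‘peak’ minus that at ‘trough’ (d) was computed for each member. This same quantity is the difference between the strains in their ‘peak’ minus ‘trough’ change. The adjusted fold difference (*aFD*) is 2 raised to the size of d, with the sign of d, and counts as changed at 1.5 or more in size. The median d over the members was -0.04, with 24 positive and 37 negative. By limma no member was called and 0% of all probesets were called higher or lower, while 2 members (3.28%) had an unadjusted p under 0.05, against 8.31% of all probesets. Of the 1391 other genes with a mean signal of 10 or more, 41 had one. No member reached an *aFD* of 1.5 in size by its brightest probeset, against 5.93% of all probesets. By their brightest probesets 240 of all 19937 genes reached it, and 1 of those 1391. Of all 193 member probesets 5 did, and each was a dimmer probeset of its gene, with d of -0.87 (*Rps25*), -0.70 (*Rps13*), -0.66 (*Rps28*), -0.64 (*Rpl36a*) and -0.61 (*Rpl21*).

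The lowest d were those of *Rps15a* (-0.46, *aFD* -1.37), *Rpl30* (-0.43, *aFD* -1.35), *Rpl26* (-0.41, *aFD* -1.33) and *Rps27l* (-0.38, *aFD* -1.30), and the highest those of *Rpl7a* (0.43, *aFD* 1.35), *Rpl3l* (0.36, *aFD* 1.28), *Rpl10l* (0.35, *aFD* 1.27) and *Rpl39l* (0.34, *aFD* 1.27). The smallest adjusted p of any member was 0.596. For *Rpl10* and *Rpl38*, by their brightest probesets, the 95% intervals of d were -0.31 to 0.34 (d = 0.02) and -0.29 to 0.24 (d = -0.02). Strain differences in the time change that lie within these intervals are not excluded. No member was called for d, so the larger number of calls in BPN/3J does not show that the change with time differed between the strains. By their brightest probesets, the members that stand in the tables of the study gave d = 0.29 (*Rpl21*), -0.01 (*Rpl29*), 0.43 (*Rpl7a*), -0.14 (*Rps25*) and -0.13 (*Rps28*), each with an adjusted p above the threshold. The dimmer probesets of *Rps25*, *Rps28* and *Rpl21* just named lay past 1.5, that of *Rpl21* with the opposite sign to its brightest one, so these values depend on the probeset.

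Probesets of the same gene did not always move alike. In 38 members with several probesets, the 132 other probesets correlated with the brightest at a median of 0.38 once group means were removed, and 37 were negative. Signs of the ‘peak’ minus ‘trough’ difference were mixed in 14 of the 38 genes in BPH/2J and 15 in BPN/3J. *Rpl10* had 4 probesets that were higher at ‘peak’ in both strains, with differences of 0.67 to 1.03 in BPH/2J and 0.57 to 1.19 in BPN/3J, and the dimmest one lay at -0.49 and -1.01. A further *Rpl38* probeset, at a mean of 10.51, lay at -0.06 in BPH/2J and was called lower in BPN/3J ‘peak’ (-0.39, adjusted p = 0.0144). The others of *Rpl38* were higher in both strains, by 0.50 or more. One dimmer *Rpl27* probeset lay at -0.21 in BPH/2J and was called lower in BPN/3J ‘peak’ (-0.67, adjusted p = 0.0163). The others of *Rpl27* were higher in both strains. Coordinates of the probesets were not at hand. Which of them reads the gene itself and which a copy was not determined, for *Rpl38* and *Rpl27* as for the rest. *Rps25*, a protein needed for some forms of internal initiation, had 6 probesets with BPH/2J differences between -0.43 and 1.45. The 9 probesets of *Rpl21* had BPN/3J differences between 0.09 and 2.35, the first being that of the brightest one.

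The widest strain difference lay in *Rps13*, whose 3 probesets gave 0.11, -0.63 and -4.16 for BPH/2J minus BPN/3J at ‘peak’. The last of these, the dimmest at a mean of 5.56, was called at both times (adjusted p = 3.57e-07 at ‘peak’ and 0.00055 at ‘trough’), whereas the brightest was not (0.922 and 0.646). Over all 193 member probesets, 38 were called higher in BPH/2J ‘peak’ and none lower, and 74 higher and 5 lower in BPN/3J ‘peak’. The shares of all probesets were 4.25% higher and 4.39% lower in BPH/2J, and 12.9% and 12.4% in BPN/3J. Several of the 193 can belong to the same gene, so they are not separate members.

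Paralogues were set beside their parent genes where both are members. *Rpl7l1*, a nucleolar relative of *Rpl7*, had ‘peak’ minus ‘trough’ differences of 0.37 ± 0.19 in BPH/2J (adjusted p = 0.26) and 0.38 ± 0.19 in BPN/3J (adjusted p = 0.148), while *Rpl7* had 0.61 ± 0.14 and 0.70 ± 0.14. *Rpl10l* had 0.09 ± 0.19 in BPH/2J and -0.26 ± 0.19 in BPN/3J, neither called, while *Rpl10* had 0.70 ± 0.11 and 0.68 ± 0.11. The paralogues were not tested against their parents.

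Other genes of ribosome production and translation were counted from lists. Among all probesets, 4.25% were called higher and 4.39% lower in BPH/2J ‘peak’, and 12.9% higher and 12.4% lower in BPN/3J ‘peak’. Of 58 ribosome biogenesis factors, 6 were called higher and none lower in BPH/2J ‘peak’ (median difference 0.23), and 28 higher and 1 lower in BPN/3J ‘peak’ (median 0.40). *Rrs1*, which brings 5S RNA into the large subunit, led in both strains, at 0.56 ± 0.10 in BPH/2J (adjusted p = 0.00299) and 1.18 ± 0.10 in BPN/3J (adjusted p = 2.28e-05), and was also higher in BPH/2J than in BPN/3J at ‘trough’ (0.59 ± 0.12, adjusted p = 0.027). Of 15 genes of RNA polymerase I and its factors, 1 was higher in BPH/2J ‘peak’ (*Znrd1*), and 9 were higher and 2 lower in BPN/3J ‘peak’, among the higher *Taf1a*, *Taf1b* and *Rrn3*. Of 29 initiation factors, 3 were higher and 1 lower in BPH/2J ‘peak’ and 13 higher and 1 lower in BPN/3J ‘peak’, *Eif4g3* being the lower one in both. Of 19 elongation factors and other TOP mRNAs, *Eif4a2* and *Cct4* were called higher in BPH/2J ‘peak’, and they and 3 more in BPN/3J ‘peak’.

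Genes of mTOR signalling and TOP control ran both ways, as did all probesets. Of 19, 1 was higher and 4 lower in BPH/2J ‘peak’ and 3 higher and 3 lower in BPN/3J ‘peak’. All probesets gave 4.25% higher and 4.39% lower in BPH/2J ‘peak’, and 12.9% and 12.4% in BPN/3J ‘peak’. *Rheb*, the activator of mTOR, was higher (0.49 ± 0.10, adjusted p = 0.00581 in BPH/2J and 0.45 ± 0.10, adjusted p = 0.00507 in BPN/3J), and *Mtor* was lower (-0.54 ± 0.10, adjusted p = 0.00292 and -0.37 ± 0.10, adjusted p = 0.012). *Larp1* was lower in BPH/2J ‘peak’ (-0.38 ± 0.10, adjusted p = 0.0247). Between the strains, *Gas5*, a non-coding TOP transcript, was lower in BPH/2J at ‘peak’ (-1.63 ± 0.13, adjusted p = 5e-07) and at ‘trough’ (-1.62 ± 0.18, adjusted p = 0.000115), as was *Eif4a3* (-1.85 ± 0.21, adjusted p = 4.37e-05, and -1.57 ± 0.30, adjusted p = 0.0182).

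Mitochondrial ribosomal proteins, which translate the few mRNAs of the mitochondrion, had counts above those of the cytosolic members. Of 74, 22 were called higher in BPH/2J ‘peak’ and 40 in BPN/3J ‘peak’, none lower, with median differences of 0.24 and 0.32. *Mrps15* was higher by 0.58 ± 0.08 in BPH/2J (adjusted p = 0.000924) and 0.64 ± 0.08 in BPN/3J (adjusted p = 0.000237). At ‘peak’ 5 were higher in BPH/2J than in BPN/3J, led by *Mrpl20* (1.08 ± 0.10, adjusted p = 2.88e-06), and 3 of them also at ‘trough’. Of 78 oxidative phosphorylation subunits, 29 were higher in BPH/2J ‘peak’, and 35 were higher and 1 lower in BPN/3J ‘peak’. Of 39 proteasome subunits the counts were 16 higher in BPH/2J ‘peak’, and 18 higher and 1 lower in BPN/3J ‘peak’. Among the 1391 other genes with a mean signal of 10 or more, 182 were higher and 115 lower in BPH/2J ‘peak’ and 319 higher and 84 lower in BPN/3J ‘peak’, with medians of 0.06 and 0.10. The lists were not tested against the members.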

How the data were processed

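Male mouse hypothalamus RNA was measured on 18 Affymetrix Mouse Gene 1.0 ST arrays, 1 mouse each. Robust multi-array average (RMA) normalization was run by the authors, and the deposited log2 values of 34760 probesets were used as they stand. The methods describe tissue around the paraventricular and dorsomedial nuclei, whereas the labels give whole hypothalamus. Gene symbols came from the platform annotation (21640 probesets with 1 symbol, 1321 with several, 11799 with none), and all 61 members matched RefSeq by gene ID. Group means were fitted with limma 3.58.1 in R 4.3.3 (lmFit and eBayes, all arrays, 14 residual degrees of freedom), with Benjamini-Hochberg adjustment over all probesets and a threshold of 0.05. Arrays of a group are separate mice, and their number limits the precision. Genes were named by rule: called members with the smallest p, or the largest and smallest differences where none was called, the brightest and dimmest, those most and least like the others, members in the study's tables, and paralogues. *Rps13* was singled out by its probesets. Members and lists were chosen with earlier results of these data known, as was the division of ‘peak’ mice by number. The fit was tested on simulated data. Alternatives covered normalization, filtering, weights, prior, samples, pairing, and probeset choice.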

Additional observations from a re-analysis of the deposited data

Results flagged for a closer look

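In 84 groups of 6 arrays (41 named members and the score, in BPH/2J ‘peak’ and BPN/3J ‘peak’), 7 held 1 array far from the other 5 by Dixon's criterion, which marks about 1 in 20 groups by chance. In BPH/2J ‘peak’, *Rpl12* was 5.43 in mouse 8, with 6 to 6.22 in the others, and *Rps18* was 12.58 in mouse 4, with 12.43 to 12.48 in the others. In BPN/3J ‘peak’ mouse 11, *Rpl27* (9.86, others 10.21 to 10.40) and *Rps10* (10.50, others 10.85 to 10.99) were low and *Rpl30* (8.15, others 7.09 to 7.46) was high. *Rpl29* was 6.46 in BPN/3J ‘peak’ mouse 6 (others 7.07 to 7.32), and *Rpl39l* was 3.88 in BPN/3J ‘peak’ mouse 5 (others 3.57 to 3.62). The score itself was not among them.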

How the results depend on the processing

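For BPH/2J ‘peak’ minus ‘trough’, the members called numbered 35 with array weights, 19 with the mean of a gene's probesets, 35 with lower-numbered and 3 with higher-numbered ‘peak’ mice (median difference 0.0305), and 3 to 10 when 1 array was left out (median 0.21 to 0.32). For BPN/3J they numbered 41, 30, 37 and 4 (median 0.11), 11 with only the groups compared, and 9 to 29 with 1 array left out (median 0.24 to 0.33). Between strains at ‘peak’ they numbered 1 with only the groups compared, 1 with higher-numbered mice, 0 with the replicate block and 1 to 2 with 1 array left out (median -0.01 to 0.07). At ‘trough’ they numbered 1 each with quantile normalization, low probesets left out, the trend and robust prior, and only the groups compared, 11 with array weights, 2 with the mean of probesets or higher-numbered mice, 4 with lower-numbered mice and 0 to 1 with 1 array left out (1 without BPH/2J ‘peak’ mouse 5, 7, 8 or 9 or BPN/3J ‘peak’ mouse 11, median 0.01 to 0.12). Array weights gave BPN/3J ‘trough’ mouse 3 a weight of 9.44. The shares of all probesets called under these alternatives are not set beside the counts. A changed count is therefore not a result about the members alone. For d the count stayed 0 under all of these (median -0.11 to -0.003 with 1 array left out). Members with an *aFD* of 1.5 numbered 4 with the replicate block, 3 with higher-numbered mice and 0 to 1 with 1 array left out (1 without BPN/3J ‘trough’ mouse 4). The first component held 69.4 percent after quantile normalization, 76.3 percent after median centring, 65 percent with the mean of probesets and 68.8 to 74.1 percent with 1 array left out, and the mean pairwise correlation was 0.27, 0.47, 0.27 and 0.28 to 0.32. Causes were not tested.

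Mouse numbers shared by both strains at a time (12 arrays) did not pair them, since residuals of same-numbered mice correlated at -0.30 to 0.19 over all probesets. Over the members alone 5 of the 6 pairs gave 0.19 to 0.43 and ‘peak’ mouse 8 gave -0.70. That replicate block gave 0 calls in either strain comparison and for d, with medians of -0.01 at ‘peak’, 0.12 at ‘trough’ and -0.18 for d. Numbers lie within a time, so no block fit could be had for ‘peak’ minus ‘trough’. Of 29 calls of single members, 645 repeats under the alternatives passed, 139 lost the call and none changed sign.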
